A study of Homo sapiens with 3 samples.

Results

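Genes linked to the transcription factor NRF2 in antioxidant defense and detoxification were followed, among them its regulators. The cells were THP-1 macrophages stimulated with imiquimod (IMQ), with or without DMD. The set holds 34 listed genes in 7 functional groups, covering glutathione, thioredoxin, NADPH supply, iron and heme, export transporters, detoxification enzymes, and the regulators of the pathway. They were found by the gene names that the scanner files give to their probes, and each gene was represented by its probe with the highest mean normalized intensity. Of the 34 genes, 33 had a probe, out of 43317 named genes on the array, and AKR1C2 was not analysed here because no probe carried its name. THP-1 is a human monocytic leukemia line that becomes macrophage-like under the phorbol ester PMA, here at 100 ng/ml for 24 to 36 h. The 3 conditions were PMA-differentiated cells without further treatment (Ctrl), such cells stimulated with IMQ, an agonist of a toll-like receptor, and such cells given DMD, a benzenoid from the mushroom Antrodia cinnamomea, and then IMQ (IMQ+DMD). Each condition was measured on 1 single-color array, so no test between conditions was possible and every difference below is between single arrays. The labels call the added compound X, which was read as DMD because the protocols name no other compound beside IMQ. Elsewhere the study also pretreated THP-1 cells with TBHQ and stimulated them with menadione, so this reading stays an inference. IMQ+DMD below stands for it. The labels give 4 h for all arrays, whereas the general methods of the study describe a longer IMQ incubation, and they give no dose. No condition held DMD without IMQ, and all 3 had received PMA.

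NRF2, encoded by NFE2L2, is held back in resting cells by KEAP1, which hands it to a ubiquitin ligase for degradation. When electrophiles or oxidants modify KEAP1, NRF2 accumulates, pairs with small MAF proteins, and binds antioxidant response elements in its target genes. In macrophages these targets are known for buffering the oxidants made during activation, for recycling heme and iron, and for restraining inflammatory gene expression.

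The antioxidant response element has the core TGACNNNGC, where N is any base, and it was looked for in the promoter windows of the members on both strands. The windows came from RefSeq (GRCh38.p14) and ran from 250 bases before to 50 bases after the start site. A window was found for 26 of the 34 members. The core was present in 8 of these 26 (30.8%), namely GCLM, GPX2, TXNRD1, PGD, ME1, EPHX1, KEAP1, and PIR, against 16.1% of the 27305 genes with a window. The AP-1 motif TGACTCA was present in ME1, PIR, and OSGIN1 (11.5%, against 6.05% of genes). Their overlap, the 9-letter TGACTCAGC, which contains the AP-1 motif and is itself a match to the core, was present in ME1 and PIR (7.69%, against 0.689% of genes). These matches describe the letters in the window and not occupied sites. Elements farther from the start site were not looked for, nor were those of the 8 members without a window. Stretches of 150 bases that end just before the start site are shown for members of different groups that carry the core there, with the core in capitals on either strand. They belong to the glutathione enzyme GCLM (chr1:93909431-93909580, minus strand), the NADPH enzyme ME1 (chr6:83431052-83431201, minus strand), the detoxification enzyme EPHX1 (chr1:225825204-225825353, plus strand), the thioredoxin reductase TXNRD1 at 2 of its start sites (chr12:104215629-104215778 and chr12:104286882-104287031, plus strand), and the repressor KEAP1 (chr19:10502772-10502921, minus strand), which carried 2 matches in the stretch shown. All are written 5′ to 3′ on the strand of the gene.
GCLM: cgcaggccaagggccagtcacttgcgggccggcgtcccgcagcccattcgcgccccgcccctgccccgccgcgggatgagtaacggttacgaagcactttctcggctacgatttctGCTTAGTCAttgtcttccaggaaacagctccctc
ME1: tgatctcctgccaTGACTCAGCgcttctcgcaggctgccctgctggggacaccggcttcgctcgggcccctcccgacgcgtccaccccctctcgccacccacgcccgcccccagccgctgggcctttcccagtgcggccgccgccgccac
EPHX1: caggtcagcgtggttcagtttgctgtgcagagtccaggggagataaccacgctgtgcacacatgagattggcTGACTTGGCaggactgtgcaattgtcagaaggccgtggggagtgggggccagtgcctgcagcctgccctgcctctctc
TXNRD1, upstream start site: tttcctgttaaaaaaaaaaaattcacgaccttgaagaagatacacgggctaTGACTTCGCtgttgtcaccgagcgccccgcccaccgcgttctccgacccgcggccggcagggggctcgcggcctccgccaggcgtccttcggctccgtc
TXNRD1, downstream start site: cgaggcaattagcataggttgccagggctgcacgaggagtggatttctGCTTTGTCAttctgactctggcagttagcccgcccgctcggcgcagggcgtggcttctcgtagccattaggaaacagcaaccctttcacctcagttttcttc
KEAP1: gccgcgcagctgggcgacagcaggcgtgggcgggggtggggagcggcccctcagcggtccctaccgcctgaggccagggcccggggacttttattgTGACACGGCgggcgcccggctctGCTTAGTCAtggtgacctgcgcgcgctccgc
The first base of the capitalized match lay 34 bases before the start site in GCLM, 137 before it in ME1, and 78 before it in EPHX1. In TXNRD1 it lay 99 and 102 bases before the respective start sites, and in KEAP1 the matches lay 54 and 31 bases before it. ME1 and the upstream TXNRD1 window each held 1 further match that is not shown, starting 11 bases after the start site in ME1 and 8 bases before it, and running past it, in TXNRD1. GCLM and KEAP1 shared the same 9 letters, GCTTAGTCA as read on the gene strand.

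The scanner software rated the signal well above background for 72.0% of the probes in Ctrl, 66.6% in IMQ, and 71.9% in IMQ+DMD. The IMQ array thus had the lowest share. Over the probes spotted 10 times, the SD between spots of the same array had a median of 0.21 log2 units at log2 intensities of 5 to 6, 0.06 at 8 to 9, and 0.04 at 14 to 15. This technical SD covers noise within an array and not the variation between cultures. The inflammatory genes used to check the stimulus were higher in IMQ than in Ctrl, with log2 differences of 6.15 for CXCL8, 3.48 for TNF, and 2.95 for IL6, and with 16.02 against 10.02 for CCL20. The 12 housekeeping genes differed by -0.55 to 0.29 between IMQ and Ctrl and by -0.08 to 0.13 between IMQ+DMD and IMQ. Of 10 macrophage markers, 8 had a probe under the name used, all well above background on every array, and 7 of these 8 were lower in IMQ than in Ctrl, CYBB by a log2 difference of -1.17. Among markers of other cells, EPCAM, COL1A2, and COL3A1 were not well above background on any array, KRT5 and KRT14 lay between 4.14 and 5.93, the T cell genes between 4.56 and 8.40, and the B cell gene CD79A at 12.04, 11.74, and 11.96 in Ctrl, IMQ, and IMQ+DMD. The part of these shifts in the values below was not tested, and in RNA from whole cultures fewer cells of a type and less RNA per cell cannot be told apart.

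Most of the listed members were higher in IMQ than in Ctrl, and most were higher again in IMQ+DMD than in IMQ. They were chosen with earlier results of these data known and do not stand for the whole pathway. Of 53 further pathway genes compared, 18 were higher and 35 lower in IMQ than in Ctrl. In IMQ+DMD against IMQ, 43 of the 53 were higher and 10 lower. After quantile normalization, 28 of the 32 members that could be compared were higher in IMQ than in Ctrl and 4 were lower, against 47.9% of all genes compared being higher. At least 2-fold higher were 9 members, namely SLC7A11, TXNRD1, SRXN1, SQSTM1, HMOX1, OSGIN1, ABCC1, AKR1C1, and PIR, against 4.22% of all genes, and no member was at least 2-fold lower, against 3.61%. Of the 9, SLC7A11, TXNRD1, SRXN1, and SQSTM1 kept the call without normalization and with spike-in scaling, whereas HMOX1, OSGIN1, ABCC1, AKR1C1, and PIR lost it under both, and BLVRB and AKR1C3 were then at least 2-fold lower. At least 1.5-fold higher were 13 members (10.7% of all genes) and at least 1.5-fold lower were 2, BLVRB and AKR1C3 (10.7% of all genes). The median log2 difference of the members was 0.45, whereas that of all genes was -0.02. The member differences exceeded 2 technical SDs upward in 28 genes and downward in the same 2. The share of all genes beyond 2 technical SDs was not computed, so these counts have no background to be read against.

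The steps from IMQ to IMQ+DMD were smaller and nearly all in the same direction. In IMQ+DMD, 31 of the 32 members were higher than in IMQ and FTH1 was lower after quantile normalization, against 51.5% of all genes being higher. AKR1C1 alone was at least 2-fold higher (1.20% of all genes), 10 members were at least 1.5-fold higher (6.75% of all genes), and none was lower by 2-fold (1.25%) or by 1.5-fold (5.43%). The 10 were GSR, TXNRD1, SRXN1, ME1, HMOX1, AKR1C1, AKR1C3, EPHX1, PIR, and OSGIN1. The median was 0.38 for the members and 0.01 for all genes. By more than 2 technical SDs, 29 members were higher and none was lower, and 3 lay within, again without a share of all genes for comparison. Against Ctrl, IMQ+DMD had 14 members at least 2-fold higher (3.10% of all genes) 22 at least 1.5-fold higher (9.90%), and none lower by 2-fold (4.82%) or 1.5-fold (11.4%), with a median of 0.79 for the members and 0.05 for all genes. All 3 comparisons draw on the same 3 arrays, so an unusual intensity on the IMQ array would enter the first of them with one sign and the second with the other.

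Because spots of low intensity vary more, the members with a mean log2 intensity of 9 or more were also set against all 10971 genes in that range, a limit chosen after the values were seen. There were 26 such members, and 25 of them were higher in IMQ+DMD than in IMQ, against 51.8% of these genes. At least 1.5-fold higher in IMQ+DMD than in IMQ were 7 of the 26 members and 0.793% of the genes in this range, and at least 2-fold higher were 0 of the 26 and 0.0638%. The mean was taken over all 3 arrays, for members and other genes alike. EPHX1, which counts among the 7, and ABCC1 measured 8.51 and 8.89 in Ctrl. These genes passed the limit only through the arrays where they were higher, so the counts rest partly on that selection. For IMQ against Ctrl, 25 of the 26 were higher (49.5% of these genes), 11 by at least 1.5-fold (9.55%) and 7 by at least 2-fold (3.98%). For IMQ+DMD against Ctrl, 25 were higher (53.3%), 19 by at least 1.5-fold (9.72%) and 12 by at least 2-fold (3.97%).

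**Figure D1:**
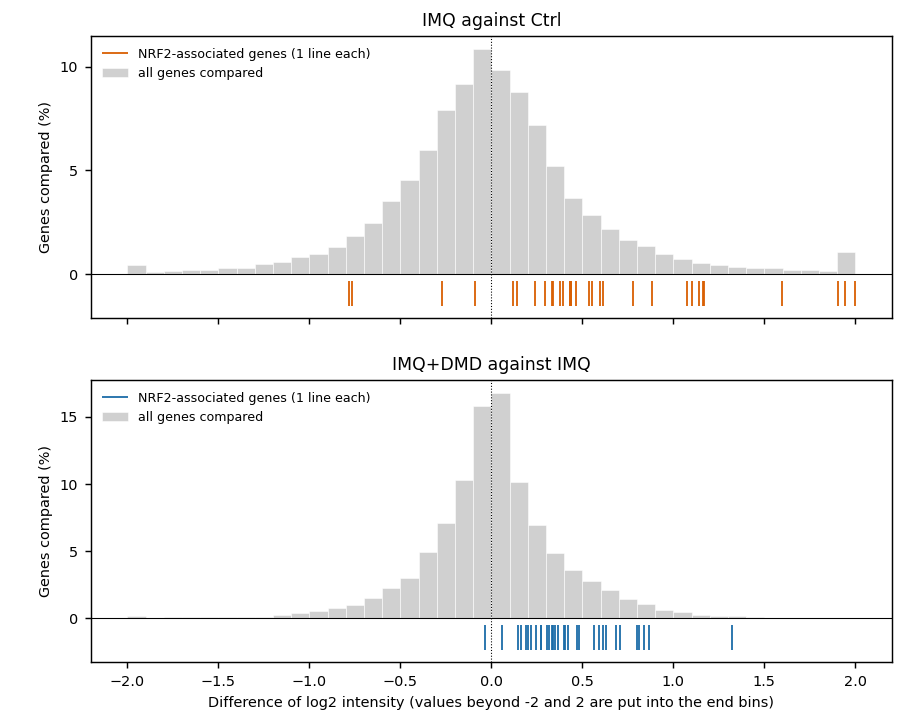
Differences of log2 intensity between single arrays after quantile normalization (horizontal axis, in bins of 0.1) for all genes compared (gray bars, percent of genes) and for the 32 NRF2-associated genes (colored lines), with IMQ compared with Ctrl in the top panel and IMQ+DMD with IMQ in the bottom panel. The lines lie mostly to the right of 0, where the gray bars are centered, with 28 of 32 above 0 in the top panel and 31 of 32 in the bottom panel. Without normalization the count in the top panel is 23 (12.9% of all genes higher), and with spike-in scaling it is 19 (10.7%).

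The direction for the less changed members depended on how the arrays were scaled. Quantile normalization gives the 3 arrays the same distribution. For IMQ against Ctrl, the median of all genes moved to -0.51 when the arrays were not normalized and to -0.59 when they were scaled to spike-in controls. Under these scalings 23 and 19 of the 32 members, respectively, were higher in IMQ than in Ctrl, against 12.9% and 10.7% of all genes. The member medians were 0.19 and 0.12. Of all genes, 1.77% were at least 2-fold higher and 15.7% at least 2-fold lower without normalization, and spike-in scaling gave 1.60% and 18.9%. Relative to the median of all genes, the members stood higher by 0.43 to 0.71 under every setting tried. Between IMQ+DMD and IMQ, the median of all genes differed by 0.065 when unnormalized and by 0.20 under spike-in scaling. Under these, 30 and 32 of the members were higher, against 57.4% and 77.5% of all genes. Relative to all genes the members stood higher by 0.23 to 0.38 in that comparison. The all-gene calls in it also shifted, to 4.18% higher and 0.554% lower when unnormalized, 6.74% and 0.399% under spike-in scaling, and 3.76% and 0.60% with the 75th percentile. For IMQ+DMD against Ctrl, the all-gene median was -0.32 when unnormalized, -0.26 under spike-in scaling, and 0.11 with the 75th percentile, and the members stood 0.74 to 0.82 above it.

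**Figure D2:**
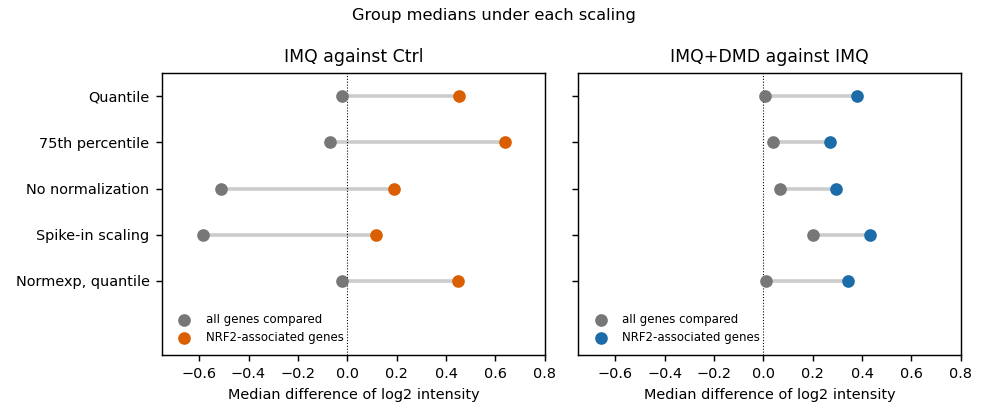
Median log2 difference (horizontal axis) of all genes compared (gray) and of the NRF2-associated genes (colored) under 5 ways of processing the arrays (rows), with IMQ compared with Ctrl on the left and IMQ+DMD with IMQ on the right. Without normalization and with spike-in scaling the gray points for IMQ against Ctrl move to -0.51 and -0.59, and the colored points lie to the right of the gray points in every row.

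**Figure D3:**
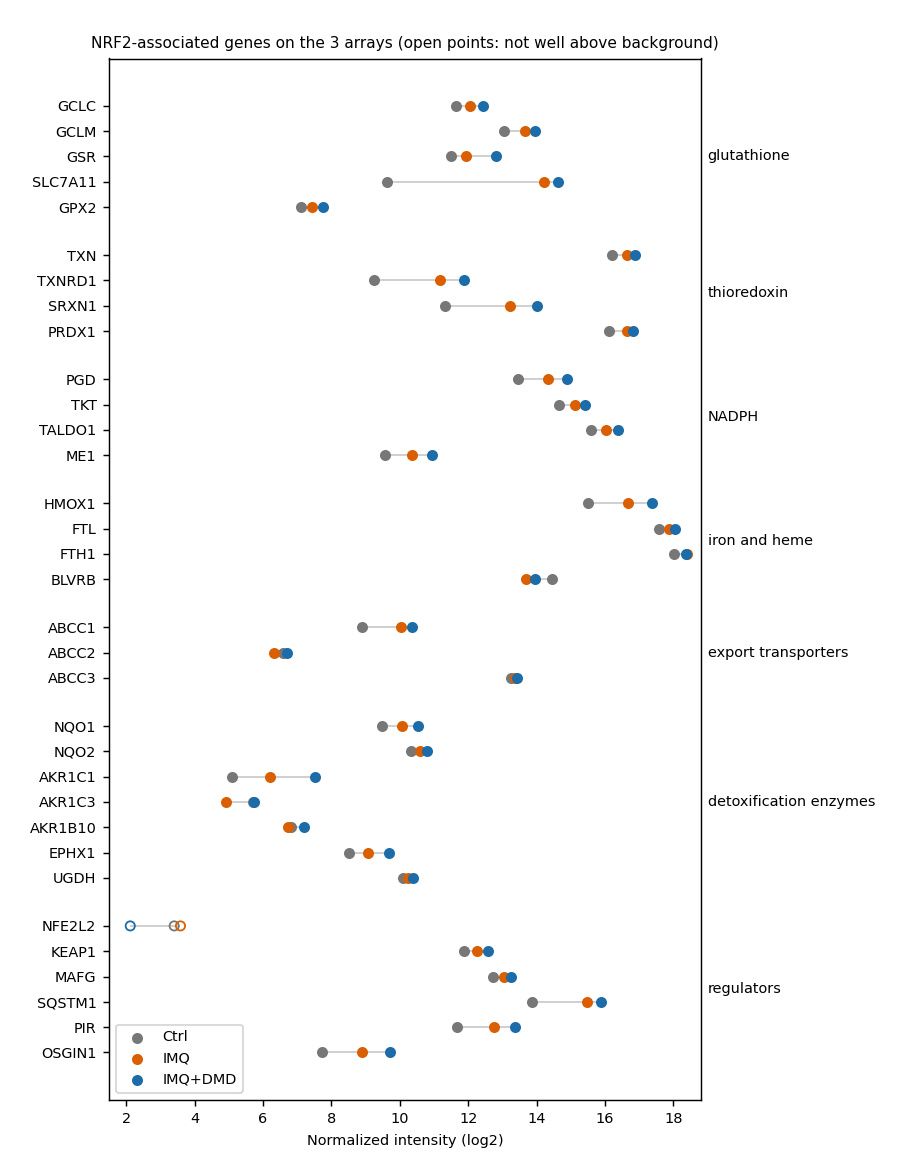
Quantile-normalized log2 intensity (horizontal axis) of the 33 NRF2-associated genes with a probe (rows, by functional group) in Ctrl (gray), IMQ (orange), and IMQ+DMD (blue), 1 point per array; open points were not well above background. Most rows run from gray over orange to blue from left to right, SLC7A11 spans 9.64 to 14.63, and BLVRB, ABCC2, AKR1C3, and AKR1B10 have IMQ at the left; with spike-in scaling the order of Ctrl and IMQ turns in GCLC, GSR, GPX2, FTL, ABCC3, NQO2, UGDH, KEAP1, and MAFG. Intensities of different genes come from different probes and are not comparable with each other.

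All 5 genes of glutathione synthesis and recycling were higher in IMQ than in Ctrl after quantile normalization, with a median log2 difference of 0.44, although with spike-in scaling GCLC, GSR, and GPX2 were lower (-0.0092, -0.0096, and -0.27) and the median turned to -0.0092. SLC7A11, the cystine importer that supplies the limiting amino acid of glutathione, had a log2 intensity of 9.64 in Ctrl, 14.23 in IMQ, and 14.63 in IMQ+DMD. On the linear scale these are normalized intensities of 797, 19187, and 25372. IMQ was thus 24.1-fold above Ctrl, the largest difference among the 32 members, and IMQ+DMD was 1.32-fold above IMQ. The probe of SLC7A11 (hg19 chr4:139085433-139085492, minus strand) has 60 bases, of which the first 30 are given because this gene gave the largest difference.
SLC7A11 probe: gaagtaagtgtgtttgttttcatcttatgg
The rate-limiting synthesis enzyme has a catalytic subunit, GCLC, which measured 11.63 in Ctrl, 12.06 in IMQ, and 12.43 in IMQ+DMD. Its modifier subunit GCLM measured 13.03, 13.65, and 13.95 on the same arrays. Both subunits stood highest in IMQ+DMD, by log2 differences of 0.80 and 0.92 from Ctrl. GSR, the reductase that regenerates reduced glutathione, measured 11.50 in Ctrl, 11.94 in IMQ, and 12.81 in IMQ+DMD. For GSR the step from IMQ to IMQ+DMD, 1.82-fold, was larger than that from Ctrl to IMQ, 1.36-fold. The glutathione peroxidase GPX2 gave low intensities of 7.10, 7.43, and 7.77, with steps of 0.34 and 0.33 and a technical SD of 0.13 for each difference.

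The 4 thioredoxin genes were all higher in IMQ than in Ctrl and in IMQ+DMD than in IMQ, with group medians of 1.22 and 0.48. TXNRD1, the NADPH-dependent reductase of thioredoxin, measured 9.24 in Ctrl, 11.19 in IMQ, and 11.89 in IMQ+DMD. SRXN1, which repairs overoxidized peroxiredoxins, measured 11.31, 13.22, and 14.02. These genes had the largest steps of the group, 3.85-fold and 3.75-fold from Ctrl to IMQ and 1.63-fold and 1.74-fold from IMQ to IMQ+DMD. TXN, thioredoxin itself, measured 16.20 in Ctrl, 16.63 in IMQ, and 16.88 in IMQ+DMD. The peroxidase PRDX1 measured 16.12, 16.66, and 16.82. The differences of TXN and PRDX1 were smaller, 1.35-fold and 1.45-fold from Ctrl to IMQ and 1.19-fold and 1.12-fold from IMQ to IMQ+DMD. On the same arrays, the reductase and the repair enzyme of the system thus differed more between conditions than the redox carrier and the peroxidase that they serve, a comparison of differences and not of levels.

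In the NADPH group, PGD and ME1 make the NADPH that supplies electrons for both reductases. The group was higher in IMQ than in Ctrl in 4 of 4 genes and in IMQ+DMD than in IMQ in 4 of 4, with medians of 0.62 and 0.46. None reached 2-fold in either step after quantile normalization. PGD and ME1 were at least 2-fold higher in IMQ+DMD than in Ctrl, and without normalization their log2 differences were 0.997 and 0.85. PGD, an NADPH-producing dehydrogenase of the pentose phosphate pathway, measured 13.45 in Ctrl, 14.33 in IMQ, and 14.90 in IMQ+DMD. ME1, the cytosolic malic enzyme, measured 9.57, 10.35, and 10.93. The sugar-rearranging enzymes of the pentose phosphate pathway differed less. TKT measured 14.67, 15.13, and 15.41 in Ctrl, IMQ, and IMQ+DMD. TALDO1 measured 15.60, 16.03, and 16.39. The IMQ+DMD to Ctrl ratio was 2.72-fold for PGD and 2.58-fold for ME1, and 1.67-fold for TKT and 1.72-fold for TALDO1.

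The iron and heme group was divided. HMOX1, the heme oxygenase that degrades heme to biliverdin, iron, and carbon monoxide, measured 15.51 in Ctrl, 16.68 in IMQ, and 17.37 in IMQ+DMD. It was 2.25-fold higher in IMQ than in Ctrl, a log2 difference of 1.17 that was 0.89 without normalization and 0.82 under spike-in scaling, and 1.61-fold higher in IMQ+DMD than in IMQ. BLVRB, a biliverdin reductase, measured 14.46 in Ctrl, 13.68 in IMQ, and 13.96 in IMQ+DMD. It was 1.72-fold lower in IMQ than in Ctrl and was the only member lower in IMQ+DMD than in Ctrl, 1.42-fold, after quantile normalization. The other biliverdin reductase, BLVRA, no member of the set, measured 13.44, 12.64, and 12.85. The iron-storing ferritin chains differed little between the arrays. FTL measured 17.57 in Ctrl, 17.87 in IMQ, and 18.06 in IMQ+DMD, which puts IMQ 0.30 above Ctrl under quantile normalization and at -0.016 from it with spike-in scaling. FTH1 measured 18.01, 18.41, and 18.37 and was the only member lower in IMQ+DMD than in IMQ after quantile normalization, by a log2 difference of -0.034 with a technical SD of 0.05, which turned to 0.069 under spike-in scaling and 0.014 with normexp correction. Many pseudogenes resemble the ferritin genes, so how far each probe reads them is uncertain. The group median was 0.34 between IMQ and Ctrl and 0.23 between IMQ+DMD and IMQ.

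Among the 3 export pumps, which carry glutathione conjugates and other anions out of the cell, ABCC1 was the one at least 2-fold higher in IMQ, a call that ended without normalization (0.74) and with spike-in scaling (0.67). ABCC1 measured 8.89 in Ctrl, 10.03 in IMQ, and 10.35 in IMQ+DMD, a 2.21-fold step followed by a 1.24-fold step. ABCC2 was dim at 6.59, 6.32, and 6.71, and neither of its steps, -0.27 and 0.40, exceeded 2 technical SDs of 0.24 each. ABCC3 measured 13.25, 13.37, and 13.43, and its log2 difference of 0.12 between IMQ and Ctrl turned to -0.23 without normalization and -0.30 with spike-in scaling. The step of ABCC3 from IMQ to IMQ+DMD was 0.06, and it was -0.084 without normalization and -0.11 with scaling to the 75th percentile.

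**Figure D4:**
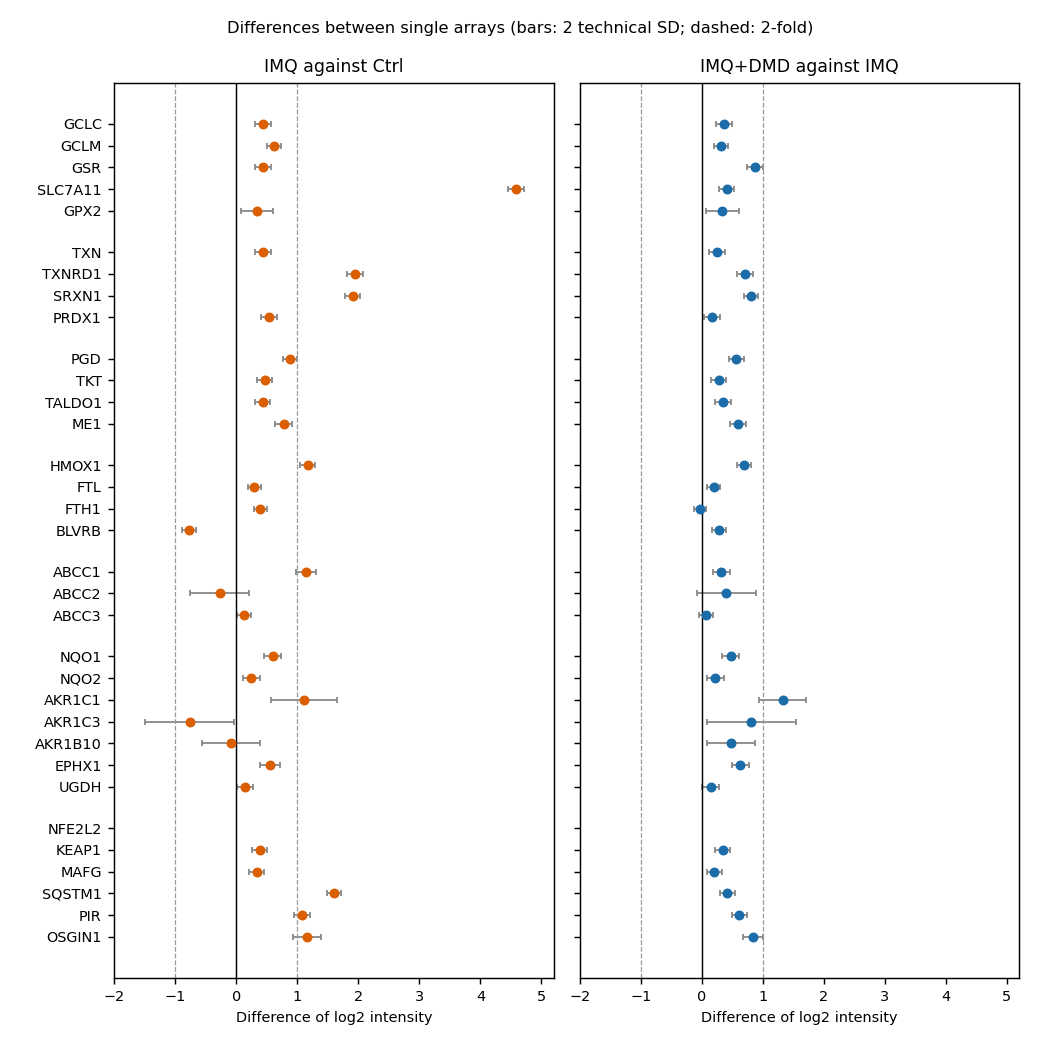
Differences of log2 intensity between single arrays after quantile normalization (horizontal axis) for the 32 NRF2-associated genes compared (rows, in the order of the groups), with IMQ compared with Ctrl on the left and IMQ+DMD with IMQ on the right. Bars show 2 technical SDs of the difference from repeated spots and dashed lines a 2-fold difference; NFE2L2 has no point because its probe was not well above background. SLC7A11 stands at 4.59 on the left, and on the right AKR1C1 is the point beyond the 2-fold line. With spike-in scaling GCLC, GSR, GPX2, FTL, ABCC3, NQO2, UGDH, KEAP1, and MAFG fall below 0 on the left.

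The detoxification enzymes were mixed in IMQ against Ctrl, with 5 of 7 higher and 2 lower, and 7 of 7 were higher in IMQ+DMD than in IMQ. Their median was 0.24 in the former comparison, where it turned to -0.16 without normalization and -0.23 with spike-in scaling, and 0.48 in the latter. NQO1, the quinone reductase most often used as a readout of NRF2 activity, measured 9.47 in Ctrl, 10.07 in IMQ, and 10.54 in IMQ+DMD. IMQ was 1.51-fold above Ctrl and IMQ+DMD 1.39-fold above IMQ, which brought IMQ+DMD to 2.09-fold of Ctrl, although that log2 difference of 1.07 was 0.56 to 0.996 under 4 of the alternatives. EPHX1, the microsomal epoxide hydrolase, measured 8.51, 9.07, and 9.69, and the step to IMQ+DMD was 1.55-fold. The related quinone reductase NQO2 measured 10.34 in Ctrl, 10.58 in IMQ, and 10.80 in IMQ+DMD, where the difference of 0.24 between IMQ and Ctrl turned to -0.16 when unnormalized and -0.23 under spike-in scaling. UGDH, which makes the sugar donor for glucuronidation, measured 10.10, 10.24, and 10.39, and its difference of 0.14 between IMQ and Ctrl turned to -0.28 and -0.36 under the same scalings.

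The aldo-keto reductases, which reduce reactive carbonyls and steroids, had low intensities and correspondingly large technical SDs. The IMQ array, with the lowest share of probes well above background, entered both steps, and its part in them was not tested. AKR1C1 measured 5.09 in Ctrl, 6.20 in IMQ, and 7.52 in IMQ+DMD on its representative probe. The steps were 2.15-fold, with a technical SD of 0.27 log2 units, and 2.50-fold, with 0.20. The log2 difference between IMQ and Ctrl was 0.48 with normexp correction, 0.49 without normalization, 0.42 under spike-in scaling, and 0.94 with the 75th percentile, and that of 1.32 between IMQ+DMD and IMQ was 0.76 with normexp correction. AKR1C3 measured 5.69, 4.93, and 5.74, and was thus 1.70-fold lower in IMQ than in Ctrl and 1.75-fold higher in IMQ+DMD than in IMQ, with a technical SD of 0.36 for each step. AKR1B10 measured 6.82, 6.73, and 7.21. Its difference between IMQ and Ctrl, -0.09, lay within 2 technical SDs, and that between IMQ+DMD and IMQ was 0.48 with a technical SD of 0.20. AKR1C family members are close paralogs, so which of them a probe reads is uncertain.

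Of the regulators, NFE2L2 could not be followed, since its only probe was not well above background on any array, at 3.40 in Ctrl, 3.58 in IMQ, and 2.12 in IMQ+DMD. KEAP1 measured 11.87, 12.25, and 12.58, and its difference of 0.38 between IMQ and Ctrl became -0.038 with spike-in scaling. MAFG, a small MAF partner of NRF2, measured 12.71, 13.04, and 13.25, and its difference of 0.33 became -0.010 without normalization and -0.082 with spike-in scaling. Neither KEAP1 nor MAFG reached 1.5-fold in either step. SQSTM1, the autophagy receptor p62, which sequesters KEAP1, measured 13.87 in Ctrl, 15.47 in IMQ, and 15.88 in IMQ+DMD. PIR, an iron-dependent nuclear coregulator, measured 11.68, 12.75, and 13.36. OSGIN1, a growth inhibitor induced by oxidative stress, measured 7.72, 8.88, and 9.72. The 3 latter genes were 3.02-fold, 2.11-fold, and 2.24-fold higher in IMQ than in Ctrl, and 1.34-fold, 1.53-fold, and 1.79-fold higher in IMQ+DMD than in IMQ. Between IMQ and Ctrl, PIR and OSGIN1 fell short of 2-fold without normalization, at 0.70 each, and under spike-in scaling, at 0.62 and 0.63, and OSGIN1 also with normexp correction, at 0.98. In IMQ+DMD, OSGIN1 stood 4.00-fold over Ctrl. Over the 5 regulators compared, the median was 1.07 between IMQ and Ctrl and 0.42 between IMQ+DMD and IMQ.

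Set side by side, the group medians for IMQ against Ctrl were 1.22 for thioredoxin, 1.07 for the regulators, 0.62 for NADPH, 0.44 for glutathione, 0.34 for iron and heme, 0.24 for the detoxification enzymes, and 0.12 for the export transporters. Under spike-in scaling they were 0.86, 0.62, 0.21, -0.0092, 0.069, -0.23, and -0.30 in that order, against an all-gene median of -0.59. In the step from IMQ to IMQ+DMD the medians were 0.48, 0.42, 0.46, 0.37, 0.23, 0.48, and 0.31 in the same order of groups. The groups held 3 to 7 compared genes each, and the range within the glutathione group, from 0.34 to 4.59 for IMQ against Ctrl, was wider than the distance between the highest and the lowest group median. Differences between the groups were not tested.

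Several members had more than 1 probe, which read other stretches of the same gene. Of the 10 such members, 8 had at least 2 probes well above background on all arrays. In all 8 every such probe was higher in IMQ than in Ctrl after quantile normalization, and in 5 of the 8 every such probe was higher in IMQ+DMD than in IMQ. The exceptions were FTH1, with steps of -0.04 to 0.05 over 3 probes, NQO2, with -0.05 to 0.22, and AKR1C1. For GSR the second probe gave 0.38 for the former and 0.51 for the latter comparison, beside 0.44 and 0.86 for the representative probe. PRDX1 gave 0.69 and 0.23 on its second probe, beside 0.53 and 0.16. The representative probe of ABCC3 gave 0.12 and 0.06, and its other probe gave 0.44 and 0.12.

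**Figure D5:**
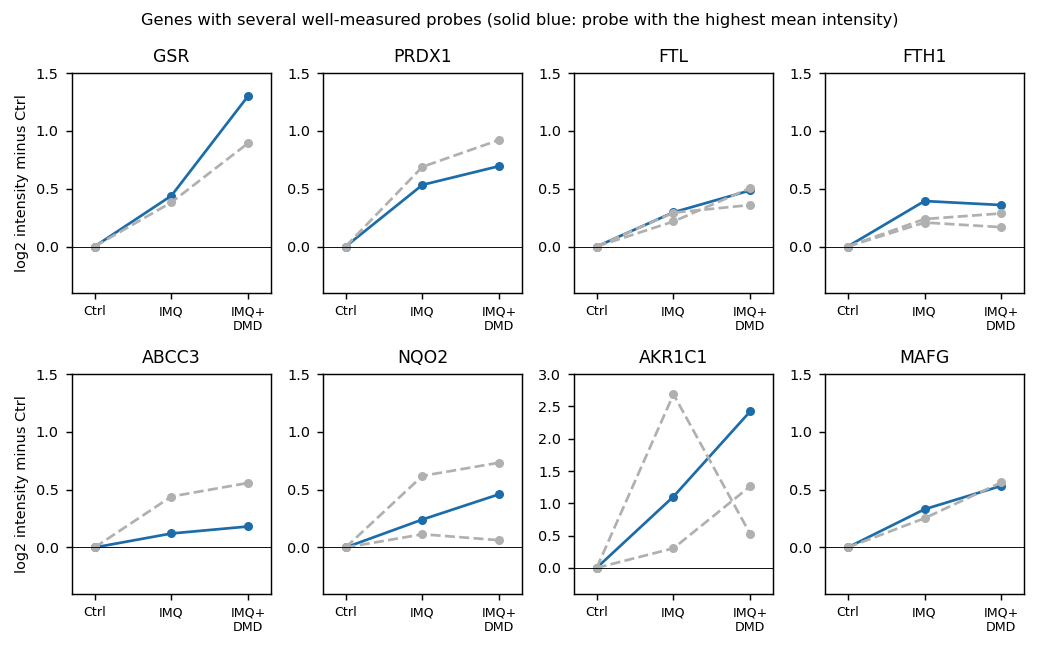
Log2 intensity minus that in Ctrl (vertical axis) on the 3 arrays (horizontal axis) for each probe well above background of the 8 NRF2-associated genes with several such probes, after quantile normalization. Solid blue lines are the representative probes and dashed gray lines the others; the AKR1C1 panel has a wider vertical axis than the others. The probes of a gene run upward in both steps in GSR, PRDX1, FTL, ABCC3, and MAFG, whereas 1 probe of AKR1C1 peaks in IMQ at 2.69 above Ctrl.

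The 3 probes of AKR1C1 disagreed, and its call as the only member at least 2-fold higher in IMQ+DMD than in IMQ rested on the choice among them and on the background correction. The representative probe (hg19 chr10:5019910-5019969, plus strand) gave the values above. The probe at chr10:5005636-5005695 measured 4.51 in Ctrl, 4.81 in IMQ, and 5.77 in IMQ+DMD, a step of 0.96 from IMQ to IMQ+DMD, and the files also list an accession of AKR1C2 for it. The probe at chr10:5011936-5011995 measured 4.48, 7.17, and 5.001, and was therefore higher in IMQ than in Ctrl by 2.69 and lower in IMQ+DMD than in IMQ by a log2 difference of -2.17. Its spots carried no outlier mark. All 3 lie on the same strand, and no exon or UTR was assigned to them here.

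Other genes of the same pathway, outside the set, were counted beside the members. Of 55 further genes of glutathione, thioredoxin, iron, transport, and NRF2 regulation, 54 had a probe and 53 could be compared. Their counts and calls are given after quantile normalization only, and those under the other scalings are not given here. Of the 53, 18 were higher and 35 lower in IMQ than in Ctrl, against 47.9% of all genes higher, with a median of -0.13 (all genes -0.02). At least 2-fold higher were 2 of the 53, the small MAF genes MAFF and MAFK, against 4.22% of all genes. MAFF measured 9.08 in Ctrl, 11.47 in IMQ, and 11.75 in IMQ+DMD. MAFK measured 9.65, 10.75, and 10.83. At least 2-fold lower were 4 of the 53, against 3.61% of all genes. They were the glutathione transferases GSTA4, MGST2, and MGST3 and the NADPH-producing dehydrogenase IDH1, with log2 differences of -1.34, -1.10, -1.03, and -1.14. In IMQ+DMD against IMQ, 43 were higher and 10 lower, against 51.5% of all genes higher, with a median of 0.10 (all genes 0.01). None was at least 2-fold different, against 1.20% of all genes higher and 1.25% lower. The 2 highest were the heme transporter SLC48A1, at 11.30 in Ctrl, 11.12 in IMQ, and 12.09 in IMQ+DMD, and the glutathione transferase GSTM3, at 11.58, 12.40, and 13.09. The 2 lowest were the mitochondrial thioredoxin reductase TXNRD2 and the pump ABCC4, with log2 differences of -0.32 and -0.28. TXNRD2 stood at 8.63 in Ctrl, 8.33 in IMQ, and 8.003 in IMQ+DMD, while its cytosolic counterpart TXNRD1 was higher in each step. In IMQ+DMD against Ctrl, 4 were at least 2-fold higher (3.10% of all genes), namely MAFF, GSTM3, MAFK, and MGST1. At least 2-fold lower were 3 (4.82% of all genes), namely GSTA4, MGST2, and IDH1.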

How the data were processed

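Total RNA of THP-1 macrophages was labeled with Cy3 and hybridized to 3 arrays of the same slide, 1 each for Ctrl, IMQ, and IMQ+DMD. The authors deposited the scanner output (Feature Extraction 10.5.1.1), with a background-corrected intensity per spot, and a table of raw and quantile-normalized intensity per probe. The raw intensity in the table was equal to the scanner value within 0.1% for 57901 of 57901 single-spot probes, and 0 of its columns were left unused for lack of a sample. Control spots and 52, 73, and 82 outlier-marked spots were left out, and 0 spots were saturated. Quantile normalization of the intensity used limma 3.58.1 (R 4.3.3). Log2 values were then computed here and repeated spots of a probe averaged. Python 3.11.15, numpy 2.4.6, pandas 2.3.3, and matplotlib 3.10.9 served for the later steps. These log2 values differed from the authors' normalized table by a median of 0.0014 or less per array.

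For probes below background, values under a floor (log2 of 4.04, 4.57, and 4.08) were raised to it, and a gene was compared where its brighter array was well above background. Differences of log2 values were called at 2-fold, without p-values, because 1 array per condition gives no replicate error, so precision is limited by the number of arrays. The technical SD of a difference came from probes with 10 spots. The steps were run on simulated copies of the Ctrl array with known differences, balanced upward and downward, and a uniform shift. This does not test how they handle an array on which most genes fall. All 34 members were named by rule, as were further pathway genes at least 2-fold different or among the 2 highest or lowest. BLVRA and the bright-gene limit were chosen after their values were seen. The members and lists were chosen with earlier results of these data known. The 10 processing alternatives were no normalization, spike-in scaling, the 75th percentile, normexp correction (offset 50), the authors' values, outlier spots kept, no floor, a stricter filter, and other choices of probe, and 2 other fold thresholds were tried. Probe positions are on hg19 as in the scanner files, and promoters on GRCh38.p14.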

Additional observations from a re-analysis of the deposited data

How the results depend on the processing

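No paired analysis was possible because each condition had a single array, so leaving an array out would remove a condition. With 1 array per condition the spread between cultures is unknown, and low intensities limit AKR1C1, AKR1C3, AKR1B10, ABCC2, and GPX2. Several of the alternatives nearly repeated the main processing, so the pooled count that follows was partly fixed in advance and is no measure of robustness. For IMQ against Ctrl, the member median of 0.45 was also 0.45 with outlier spots kept and with the stricter filter. Of 960 values of single members under the alternatives, 933 kept the direction reported, 21 reversed, and 6 changed sign where the reported value was within 1 technical SD of 0. The 6 were FTH1 in IMQ+DMD against IMQ (0.069 with spike-in scaling and 0.014 with normexp correction), and ABCC2 and AKR1C3 in IMQ+DMD against Ctrl (without normalization -0.19 and -0.25, with spike-in scaling -0.13 and -0.19). The 21 reversals all arose without normalization, with spike-in scaling, or with percentile scaling. All members share the shift of an array, so scaling moved them together, and where a value moved for another reason the cause was not tested.

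For IMQ against Ctrl, the member median of 0.45 was 0.19 without normalization, 0.12 with spike-in scaling, and 0.64 with the 75th percentile. The 9 members called higher became 4 without normalization, 4 with spike-in scaling, and 1 at a 4-fold threshold, and the 0 called lower became 2 with each of these scalings and 2 at 1.5-fold. Reversed without normalization were ABCC3 (-0.23), GPX2 (-0.20), MAFG (-0.010), NQO2 (-0.16), and UGDH (-0.28), and the medians of detoxification enzymes (-0.16) and export transporters (-0.23). With spike-in scaling, ABCC3 (-0.30), FTL (-0.016), GCLC (-0.0092), GPX2 (-0.27), GSR (-0.0096), KEAP1 (-0.038), MAFG (-0.082), NQO2 (-0.23), and UGDH (-0.36) reversed, with the medians of detoxification enzymes (-0.23), export transporters (-0.30), and glutathione (-0.0092).

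For IMQ+DMD against IMQ, the median of 0.38 was 0.30 without normalization and 0.27 with the 75th percentile. The 1 member called higher became 2 under no normalization, spike-in scaling, and the 75th percentile, 10 at 1.5-fold, and 0 at 4-fold, with normexp correction, and with the mean of all probes of a gene. Without floor or filter 1 member was called lower. ABCC3 reversed without normalization (-0.084) and with the 75th percentile (-0.11).

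For IMQ+DMD against Ctrl, the median of 0.79 was 0.42 without normalization, 0.48 with spike-in scaling, and 0.86 with the mean of all probes. The 14 members called higher became 8 without normalization, where ABCC1, EPHX1, GSR, ME1, NQO1, and PGD were lost, 22 at 1.5-fold, and 6 at 4-fold, and without floor or filter 1 was called lower. Reversed without normalization were ABCC3 (-0.31), NQO2 (-0.040), UGDH (-0.22), and the export median (-0.19), and with spike-in scaling ABCC3 (-0.247), UGDH (-0.16), and the export median (-0.13).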
